A study of Rattus norvegicus with 6 samples.

Results

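Slc1a2, Slc1a3, S100b and Acsbg1, which are widely used as marker genes of astrocytes, were described in the whole brain of BN-Lx/CubPrin (BNLx) and SHR/OlaIpcvPrin (SHR) rats. The 4 loci were those of the deposited annotation in which a transcript carries 1 of these reference gene names, out of 24744 quantified loci, and they hold 15 annotated isoforms and 10 distinct 3′ ends. The 6 libraries came from polyA RNA of 3 naïve male rats per inbred strain, 1 library per rat, with no treatment and no age given in the sources used here. SHR is the spontaneously hypertensive rat, and BNLx is a Brown Norway line. All 4 genes, 10 of the 15 isoforms and 7 of the 10 ends passed a filter of 50 counts in 2 of 3 libraries of either strain and were tested. Each library holds the RNA of all cells of the tissue, so fewer astrocytes and less RNA per astrocyte cannot be told apart.

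Astrocytes clear glutamate from the synaptic cleft, and the released glutamate returns to neurons as glutamine. Slc1a2 encodes GLT-1 (EAAT2), the main glutamate transporter of the forebrain, and Slc1a3 encodes GLAST (EAAT1), which is most abundant in the Bergmann glia of the cerebellum and in radial glia. S100b encodes a small calcium-binding protein of astrocytes that maturing oligodendrocytes also make, and Acsbg1 encodes an acyl-CoA synthetase that activates long and very long chain fatty acids.

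Between the strains, S100b had lower values in all SHR libraries than in any BNLx library, and Slc1a3 had higher values in all of them. Slc1a2 and Acsbg1 overlapped between the strains. With all 6 libraries, 0 of the 4 genes were called by edgeR's quasi-likelihood test at a Benjamini-Hochberg adjusted p of 0.05, in a comparison that called 1.02% of 14471 genes. At an unadjusted p under 0.05 there were 2 of the 4, and 10.2% of all genes. The strains did not overlap in 2 of the 4 members, and in 17.4% of all genes tested. DESeq2 called 1 of the 4, S100b, and 3.76% of the genes to which it gave an adjusted p.

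Levels between genes were compared in TPM, an abundance within a library that divides by transcript length. S100b stood highest in 5 of the 6 libraries, followed by Slc1a2, Slc1a3 and Acsbg1. S100b was at 1527.4 ± 156 TPM in BNLx and 1049.9 ± 55 TPM in SHR (SD, n = 3 each). Slc1a2 was at 520.0 ± 65.1 TPM in BNLx and 889 ± 341 TPM in SHR, so that in SHR it did not differ from S100b beyond its spread, and in SHR replicate 2 it was above it (1206 against 1054 TPM). Slc1a3 was at 283 ± 24.6 and 400.0 ± 23.4 TPM, and Acsbg1, the lowest of the 4 in every library, at 163 ± 35.4 and 148 ± 14.8 TPM. These levels depend on which part of each gene is annotated, which matters for Slc1a2 below. They also depend on how reads shared by isoforms were divided. In SHR replicate 2, 35.4% of the Slc1a2 TPM came from short isoforms that held 4.48% of its counts, and the order there rests on that division.

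The libraries themselves differ in ways that bear on every value here. Total expected counts ran from 11747048 to 41333078, and the smallest count of a member in a library was 1988, for Acsbg1 in BNLx replicate 2. BNLx replicate 3 and SHR replicate 1 differed from their strain mates, with a chi-square per degree of freedom of 69.07 to 114.11, where BNLx replicates 1 and 2 had 9.72 and SHR replicates 2 and 3 had 8.38. Forebrain genes were low in both: the 8 tested summed to 149 CPM (counts scaled to library size by TMM) in BNLx replicate 3 and 834 CPM in SHR replicate 1, against 1719 to 2458 CPM elsewhere. Although all samples are labelled whole brain, 3 of the 8 forebrain genes were under 1 CPM in BNLx replicate 3, with none at 0. The results of the 4 genes and the counts of each gene list are therefore also given without both libraries, a choice made with earlier results of these data known.

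**Figure D1:**
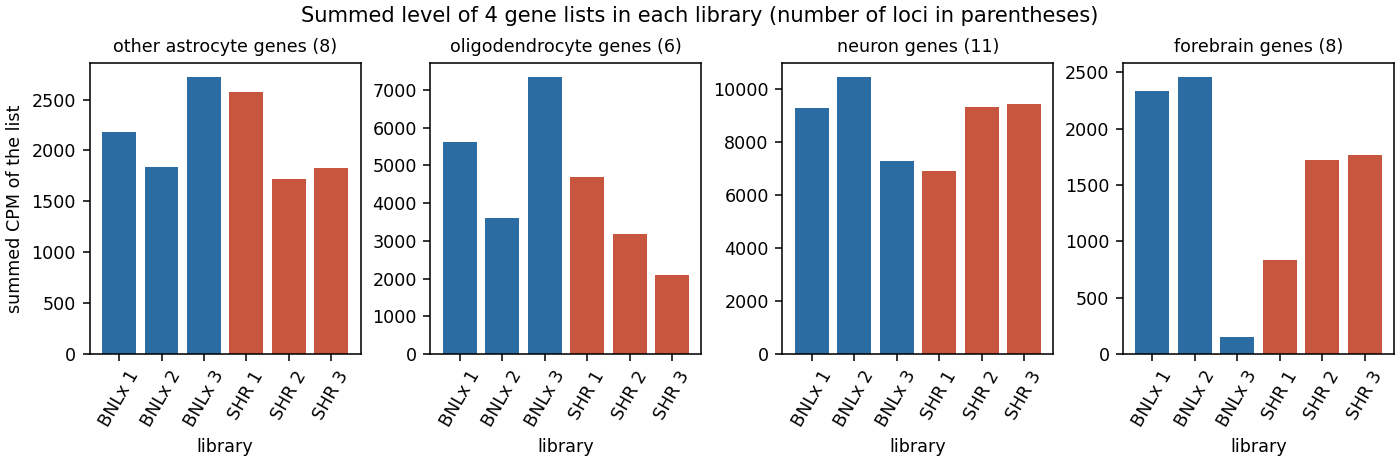
Summed CPM (vertical axes, from 0) of 4 gene lists in each of the 6 libraries, with BNLx in blue and SHR in red. The forebrain list stood at 149 CPM in BNLx replicate 3 and 834 in SHR replicate 1. The sum of the other astrocyte genes was highest in these same libraries, at 2721 and 2575 CPM. In BNLx replicate 3, 556 CPM of that sum came from Slc6a11, which was at 84.3 and 93.3 CPM in BNLx replicates 1 and 2. Cst3, the largest of the list, was lower in BNLx replicate 3 (1083.4 CPM) than in BNLx replicate 1 (1208 CPM).

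S100b (rn6 chr20:13130636-13142856, minus strand, 1 isoform of 3 exons and 1484 bases) was at 1038.9, 893 and 1015.8 CPM in the BNLx libraries (replicates 1, 2 and 3) and at 706, 616 and 603 CPM in SHR 1 to 3. The highest SHR library lay below the lowest BNLx library. The log2 fold change of SHR over BNLx was -0.61 (standard error 0.14, 95% interval -0.95 to -0.28), with an unadjusted p of 0.00387 and an adjusted p of 0.161 from edgeR. Leaving out 1 library at a time gave log2 fold changes of -0.69 to -0.57 with adjusted p-values of 0.0885 to 0.721. With BNLx replicate 3 and SHR replicate 1 both left out it was -0.67 (interval -0.89 to -0.45, adjusted p = 0.00526 from edgeR with 2 libraries per strain). Of the 4 members it moved least when libraries were left out, and aptardi added no 3′ end to it.

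Genes of oligodendrocytes, which also make S100b, had values in the same direction. All 6 tested oligodendrocyte genes had negative log2 fold changes, with a median of -0.82 against 0.0004 over all genes tested. Of the 6, 0 were called, 2 had an unadjusted p under 0.05 and 1 was called by DESeq2. Over all genes tested these shares were 1.02%, 10.2% and 3.76%. Without BNLx replicate 3 and SHR replicate 1 the median was -0.89, and 4 of the 6 were called, all lower in SHR, where 31.5% of 13932 genes were. Mobp, a myelin protein, was at 1061.7 ± 430.0 CPM in BNLx against 406 ± 107 CPM in SHR. Cldn11, the claudin of myelin sheaths, was at 314 ± 86.3 and 207 ± 95.1 CPM. The summed level of the list ran from 3592 to 7340 CPM in BNLx and from 2094 to 4689 CPM in SHR, and these ranges overlap where those of S100b do not. Their part in the S100b difference was not tested.

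**Figure D2:**
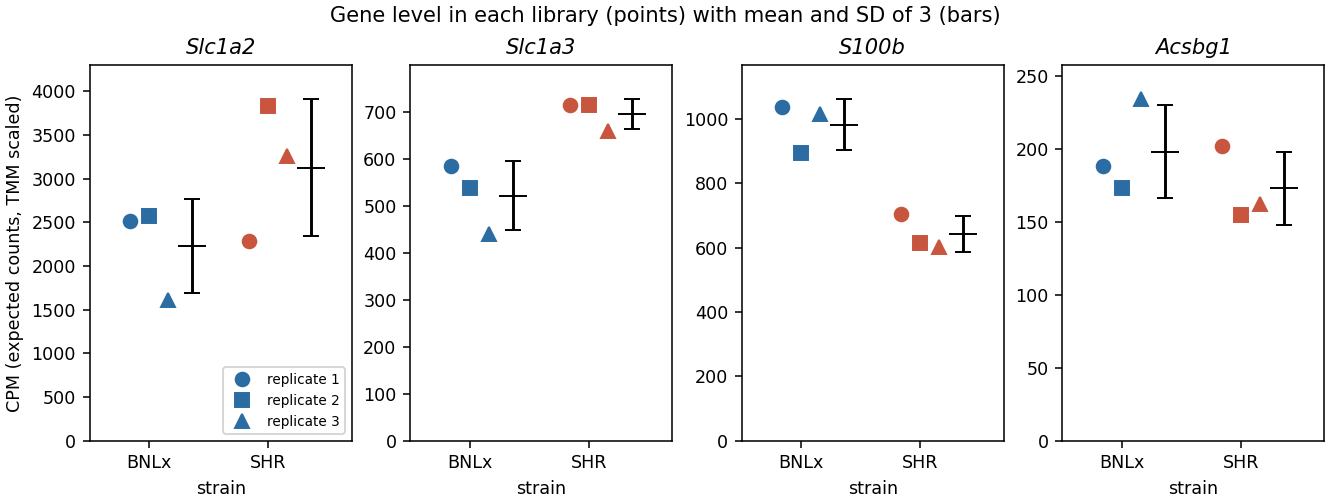
CPM (vertical axes, from 0) of the 4 genes in each library, BNLx in blue and SHR in red, with the symbol giving the replicate number and the bars the mean and SD of 3. S100b lies between 603 and 706 CPM in SHR and between 893 and 1038.9 CPM in BNLx, and Slc1a2 shows its widest spread within SHR.

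Slc1a3 (rn6 chr2:57860834-57944530, minus strand) was at 586, 539 and 441 CPM in BNLx 1 to 3 and at 714, 715 and 660.0 CPM in SHR 1 to 3. The SHR values lie close together and above all BNLx values, among which replicate 3 is the lowest. The log2 fold change was 0.41 (standard error 0.15, interval 0.06 to 0.77), with an unadjusted p of 0.0299 and an adjusted p of 0.408 from edgeR. Without BNLx replicate 3 and SHR replicate 1 it was 0.29 (interval 0.09 to 0.48, adjusted p = 0.0414 from edgeR).

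The locus of Slc1a3 holds 5 isoforms, of which 3 passed the filter. The isoform of 10 exons (STRG.8019.1, 3953 bases) held 93.4% to 99.1% of the counts of the locus and was at 511 ± 79.1 CPM in BNLx and 687 ± 36.7 CPM in SHR (log2 fold change 0.43, unadjusted p = 0.0314 and adjusted p = 0.508 from edgeR). The other isoforms named Slc1a3 (STRG.8019.2 and STRG.8019.3) have fewer exons and end 49 bases short of it. STRG.8019.2 lay between 3.22 and 10.8 CPM in all libraries. STRG.8019.3 was at 0.0 CPM in BNLx replicate 1 and 24.2 CPM in BNLx replicate 2, so that its spread within BNLx exceeded the difference between the strain means (log2 fold change -0.18, interval -4.18 to 3.82). The locus also holds a transcript of a second annotated gene (STRG.8019.5), at 0.226 CPM at most. Aptardi added no isoform to this locus.

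An unnamed transcript of 3 exons assembled upstream of Slc1a3 and joined to its locus (STRG.8019.4, rn6 chr2:57940760-57944530) did not pass the filter on counts. It was at 0.503, 0.473 and 0.395 CPM in BNLx and at 2.71, 1.8 and 1.57 CPM in SHR, with no overlap. It held at most 0.37% of the counts of the locus. It shares its first exon with STRG.8019.5 and none with the isoforms named Slc1a3, whose first exons begin several kilobases downstream.

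Slc1a2 (rn6 chr3:92640752-92674698, plus strand) was at 2513.1, 2570.2 and 1607 CPM in BNLx 1 to 3 and at 2288.1, 3834.7 and 3254.7 CPM in SHR 1 to 3. The lowest SHR library lay below the highest BNLx library, and the libraries poor in forebrain genes were the lowest of their strain. The log2 fold change was 0.49 (standard error 0.28, interval -0.18 to 1.16, adjusted p = 0.626 from edgeR). Without BNLx replicate 3 and SHR replicate 1, both BNLx libraries were below both SHR libraries, and the log2 fold change was 0.48 (standard error 0.09, interval 0.26 to 0.70, adjusted p = 0.0131 from edgeR). The fitted sizes were close, and the second interval was narrower. Leaving out the lowest library of each strain lowers the spread within strains, so the narrower interval is no added evidence of a difference. Leaving out 1 library at a time gave 0.30 without BNLx replicate 3, 0.31 without SHR replicate 2 and 0.46 to 0.67 without each of the others, and none was called.

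Acsbg1 (rn6 chr8:59184113-59239954, minus strand, 1 isoform of 14 exons and 2677 bases) was at 188, 173 and 234 CPM in BNLx 1 to 3 and at 202, 155 and 162 CPM in SHR 1 to 3. Its order over the libraries ran against that of Slc1a2: BNLx replicate 3 had the highest Acsbg1 and the lowest Slc1a2, and SHR replicate 2 the lowest Acsbg1 and the highest Slc1a2. The log2 fold change was -0.20 (standard error 0.17, interval -0.61 to 0.21, adjusted p = 0.761 from edgeR), and -0.19 (interval -0.36 to -0.02, adjusted p = 0.0814) without both libraries. Without BNLx replicate 3 alone it was -0.06. It was not called under any of the settings tried.

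In the comparison of 2 libraries per strain, 3 of the 4 members were called, 2 of them higher in SHR, against 31.5% of 13932 genes. The libraries left out of it were those that differed from their strain mates, which lowers the spread within strains. The fitted differences of the 4 genes kept their sign in every fit tried.

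**Figure D3:**
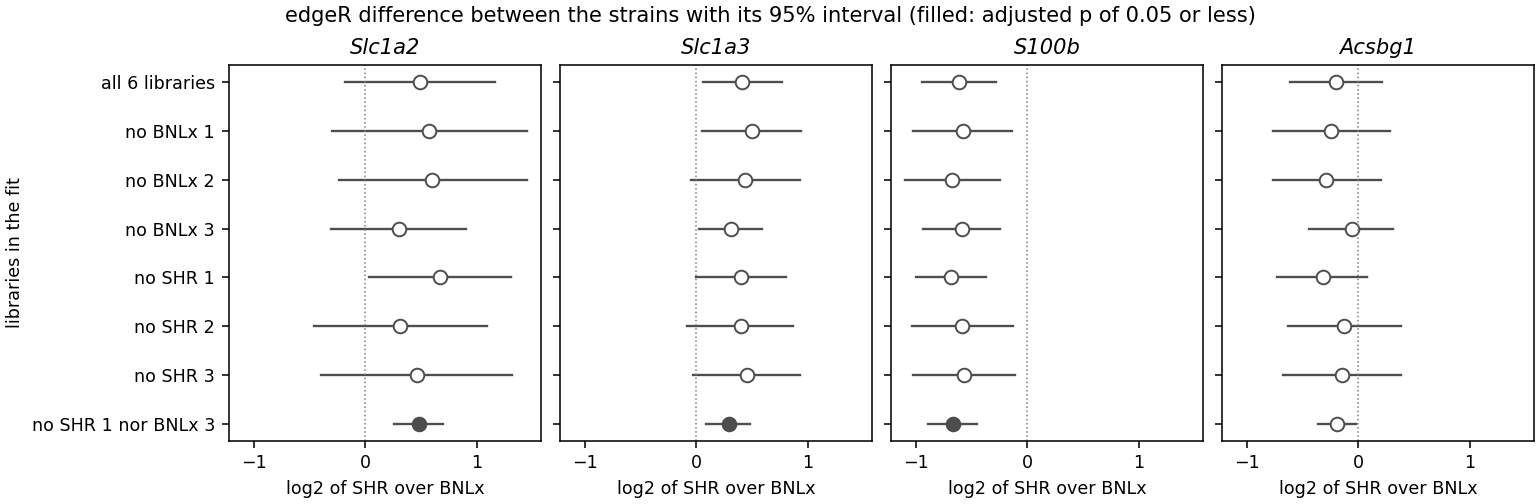
Log2 fold change of SHR over BNLx (horizontal axes) from edgeR with its 95% interval, with all 6 libraries, without each library in turn and without BNLx replicate 3 and SHR replicate 1 together; filled points have an adjusted p of 0.05 or less. Filled points occur only in the bottom row, for Slc1a2, Slc1a3 and S100b, and the interval of S100b lies below 0 in every row.

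The isoforms of Slc1a2 show how the annotation shapes its values. The annotated locus spans 33947 bases, while the RefSeq gene spans 130337 bases in the GRCr8 assembly, so the locus holds part of the gene only, with 4 or 5 exons per isoform. The assembled transcript that carries the reference name (STRG.13593.1, 882 bases) was at 0 counts in all 6 libraries. Nearly all counts of the locus, from 90.1% to 95.8%, fell to an unnamed isoform with the same inner exons and a last exon of 9870 bases (STRG.13593.3, 10632 bases in all). It was at 2118.2 ± 525 CPM in BNLx and 2897.8 ± 615 CPM in SHR (log2 fold change 0.45, standard error 0.26). Isoforms STRG.13593.2 and STRG.13593.4, which retain sequence between these exons, end at the same position and lay between 53.3 and 186 CPM and between 6.88 and 23.4 CPM.

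**Figure D4:**
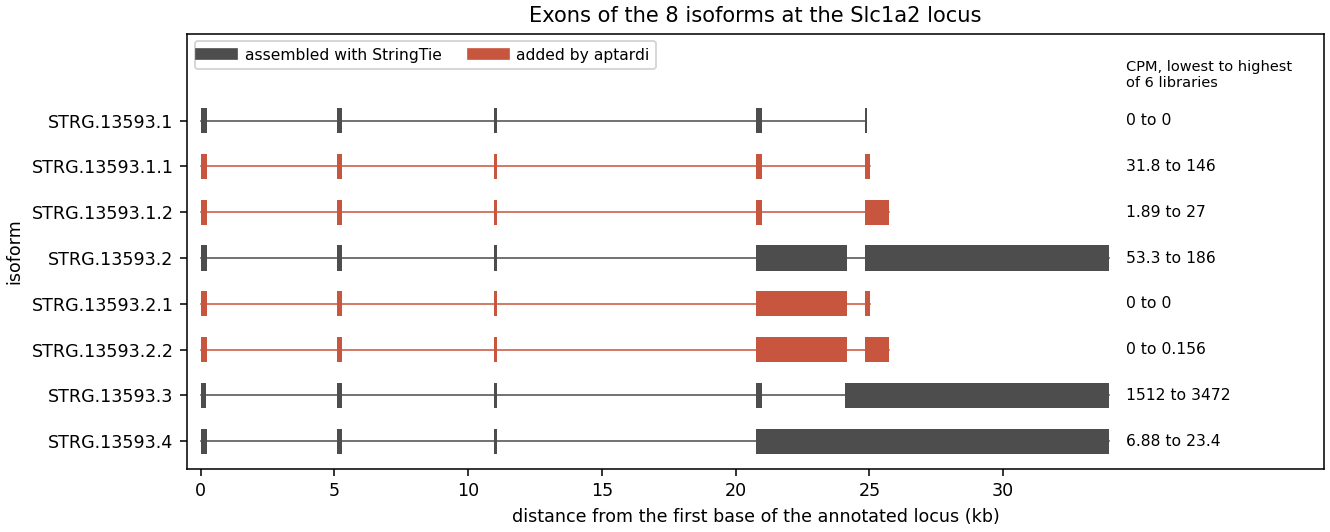
Exons (boxes) and introns (lines) of the 8 isoforms at the Slc1a2 locus by distance from its first base in kilobases, with those that aptardi added in red and the lowest and highest CPM over the 6 libraries at the right. Both ends that aptardi added lie within the last exon of STRG.13593.3, the isoform with 1512 to 3472 CPM.

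Aptardi, which predicts polyadenylation sites from sequence and read coverage, added 4 isoforms to the locus at 2 new 3′ ends. The ends lie 944 and 1644 bases into the 9870-base last exon of STRG.13593.3, at rn6 positions 92665772 and 92666472 of chromosome 3, and 8926 and 8226 bases before the last end of the locus at 92674698. Relative to the named transcript they lengthen it by 128 bases (STRG.13593.1.1) and 828 bases (STRG.13593.1.2), and relative to STRG.13593.2 they shorten it. The shortened pair was at or near 0 in every library, with 0.156 CPM at most. The isoforms that aptardi added start their last exon at 92665573, whereas STRG.13593.3 starts its own at 92664829. No annotated isoform joins the start used by STRG.13593.3 to an earlier end. Differences between the earlier ends and STRG.13593.3 therefore cannot be told apart from this difference in splicing. STRG.13593.1.1 was at 38.2, 31.8 and 44.9 CPM in BNLx 1 to 3 and at 35.2, 146 and 104 CPM in SHR 1 to 3. SHR replicates 2 and 3 were above all BNLx libraries, and SHR replicate 1 lay among them. Its log2 fold change was 1.31 (standard error 0.51, interval 0.05 to 2.57, unadjusted p = 0.0443 and adjusted p = 0.56 from edgeR).

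STRG.13593.1.2 was at 1.9, 1.89 and 7.71 CPM in BNLx and at 2.62, 27 and 11.4 CPM in SHR, in the same order of libraries within SHR. With all 6 libraries, 0 of the 10 isoforms of the 4 loci reached the study's threshold, an unadjusted p of 0.001, which 1.0% of 32348 isoforms reached (3 of the 10 at p under 0.05, against 8.74% of isoforms, and 1, the S100b isoform, by DESeq2, against 3.63%). The strains did not overlap in 2 of the 10, the main isoforms of S100b and Slc1a3, against 16.5% of all isoforms. Without BNLx replicate 3 and SHR replicate 1, 1 of the 10 reached it, STRG.13593.4 (log2 fold change 1.67, unadjusted p = 0.00054 from edgeR), against 3.88% of isoforms. In that comparison STRG.13593.1.1 had a log2 fold change of 1.84 and STRG.13593.1.2 of 3.33 (unadjusted p = 0.00112 and 0.00353 from edgeR).

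Isoforms whose ends lie within 30 bases were then summed into 3′ ends. Of the 7 ends past the filter, 0 were called with all 6 libraries, where 0.653% of 21748 ends were. At an unadjusted p under 0.05 by edgeR there were 3 of the 7, against 10% of ends, and DESeq2 called 2 of them, against 6.57% of ends. With 2 libraries per strain 4 of the 7 were called, the 3 ends of Slc1a2 and that of S100b, against 19.2% of ends. The earlier aptardi end of Slc1a2 then had a log2 fold change of 1.85 (interval 1.3 to 2.39), the later one of 3.35 (1.97 to 4.73) and the last end of the locus of 0.45 (0.19 to 0.70), each an SHR value over a BNLx value.

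The ends before the last took 1.56%, 1.31% and 3.19% of the Slc1a2 counts in BNLx 1 to 3 and 1.61%, 4.48% and 3.55% in SHR 1 to 3. As a share of TPM they took 16.1%, 13.9% and 27.8% in BNLx and 16.4%, 35.4% and 30.3% in SHR. The share of TPM is larger because TPM divides the counts by length, and the isoform of 1010 bases is set there against one of 10632 bases. BNLx replicate 3 lies with SHR replicates 2 and 3, and SHR replicate 1 with BNLx replicates 1 and 2, so the strains overlap on both scales. Reads in the shared exons fit both the short and the long isoforms, and RSEM divided them between these by estimation. The short isoforms also start their last exon elsewhere than STRG.13593.3. End and splicing therefore cannot be told apart in these shares, nor in the tests of the ends.

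**Figure D5:**
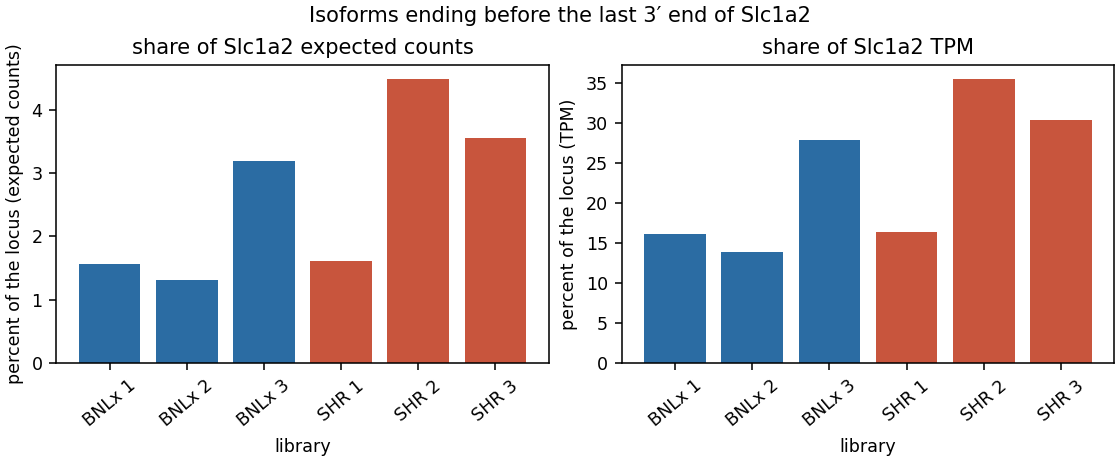
Share of the Slc1a2 locus held by isoforms that end before its last 3′ end, in percent of expected counts (left) and of TPM (right), in each library; both axes start at 0. The share runs from 1.31% to 4.48% of counts and from 13.9% to 35.4% of TPM, and BNLx replicate 3 is higher than SHR replicate 1 on both scales.

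Whether isoforms of 1 locus differed by unequal amounts between the strains was tested with diffSpliceDGE of edgeR. Isoform usage was called for neither Slc1a2 nor Slc1a3 (adjusted p = 1.0 for both from edgeR), in a test that called 2.63% of 7742 loci. Use of 3′ ends was called for neither (adjusted p = 1.0 for both from edgeR), where 1.48% of 4855 loci were. The unadjusted p-values of edgeR were 0.332 and 0.899 for isoforms and 0.226 and 0.525 for ends. With 2 libraries per strain, Slc1a2 was called for isoform usage (adjusted p = 0.00104, against 14.7% of loci) and for use of 3′ ends (adjusted p = 0.00556, against 22.3% of loci), and Slc1a3 was called for neither. Slc1a2 was not called without either of these libraries alone (adjusted p = 0.954 without BNLx replicate 3 and 0.664 without SHR replicate 1, from edgeR). The diffSplice test of limma on all 6 libraries called Slc1a3 (adjusted p = 0.0449, against 2.26% of loci) and not Slc1a2 (adjusted p = 0.887). The isoform of Slc1a3 that is at 0 in BNLx replicate 1 enters that test, and its part in the call was not tested.

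An unnamed locus on the minus strand (STRG.13594, 2 exons) overlaps Slc1a2 almost end to end. The libraries were made with a kit that does not mark strand, so reads from both cannot be told apart. It was at 7.41, 7.99 and 1.85 CPM in BNLx and at 7.37, 17.6 and 14.7 CPM in SHR (log2 fold change 1.19, adjusted p = 0.565 from edgeR), with the lowest value in BNLx replicate 3, as for Slc1a2. On the plus strand, 75816 bases before Slc1a2 and after Pamr1, an unnamed locus of up to 3 exons (STRG.13584) was at 9.17, 6.45 and 5.93 CPM in BNLx and at 7.75, 28.6 and 25.2 CPM in SHR (log2 fold change 1.5, adjusted p = 0.36). SHR replicates 2 and 3 were again the highest and SHR replicate 1 lay within the BNLx range. Among protein-coding genes, RefSeq places Slc1a2 next after Pamr1 on this chromosome. Genes of other types were not looked at, and whether STRG.13584 belongs to Slc1a2 was not tested. Both unnamed loci were chosen after their values were seen.

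Promoter sequences are shown for S100b and Slc1a3, the members whose strains did not overlap. They are RefSeq windows of 300 bases on the GRCr8 assembly, not the sequence of either strain, and GRCr8 positions are not those of rn6. The annotated S100b transcript spans 12221 bases in rn6, and the RefSeq gene spans 8815 bases in GRCr8. The S100b window therefore need not lie at the start of the transcript measured here. Capitals mark CCAAT, the box of that name, and the letters TTGGC, the core of nuclear factor I sites, on either strand. A run of 6 capitals holds both, overlapping by 4 bases. S100b lies at chr20:12381032-12381331, minus strand, and Slc1a3 at chr2:59557759-59558058, minus strand, the first of its 3 windows.
S100b: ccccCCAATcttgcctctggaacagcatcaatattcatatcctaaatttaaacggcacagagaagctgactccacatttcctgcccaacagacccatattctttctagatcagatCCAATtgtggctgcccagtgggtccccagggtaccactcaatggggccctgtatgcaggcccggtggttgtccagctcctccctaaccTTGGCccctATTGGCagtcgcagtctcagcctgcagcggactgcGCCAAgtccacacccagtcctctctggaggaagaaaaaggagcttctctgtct
Slc1a3: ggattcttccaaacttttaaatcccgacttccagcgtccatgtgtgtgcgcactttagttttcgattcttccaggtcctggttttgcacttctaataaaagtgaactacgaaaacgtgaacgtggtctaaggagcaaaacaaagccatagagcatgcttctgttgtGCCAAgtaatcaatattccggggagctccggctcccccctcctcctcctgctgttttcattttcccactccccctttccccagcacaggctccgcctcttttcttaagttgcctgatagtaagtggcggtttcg

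The S100b window holds CCAAT in 3 places and TTGGC in 3, and the Slc1a3 window holds TTGGC in 1 place and none of the former. The first motif, CCAAT, occurs in 37.5% and TTGGC in 45.9% of 33365 RefSeq windows of the same length. TATAAA, the TATA box, occurs in 14.2% of windows and in none of those of the 4 genes. The Acsbg1 window holds CCAAT in 1 place and TTGGC in 2. These are matches of letters and were not tested for binding.

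Other astrocyte genes did not follow the members in a single direction. Of 30 listed, 8 carry a name in the annotation and were tested, 3 with a positive and 5 with a negative log2 fold change, and 0 were called by edgeR, 0 had an unadjusted p under 0.05 and 0 were called by DESeq2. Their median log2 fold change was -0.08, and 0.05 with 2 libraries per strain, when 3 of the 8 were called, 1 of them higher in SHR. Over all genes, 31.5% were called in that comparison. With all 6 libraries, 1.02% were called, 10.2% had an unadjusted p under 0.05 and DESeq2 called 3.76%. The same shares hold for the lists that follow. Cst3, the protease inhibitor cystatin C and the highest of the astrocyte list in TPM, was at 1069.2 ± 146 CPM in BNLx and 931 ± 300 CPM in SHR. Gja1, the gap junction protein connexin 43, was at 274 ± 52.6 and 294 ± 14.9 CPM, and Bcan, the matrix proteoglycan brevican, at 265 ± 24.6 and 295 ± 17.7 CPM. Slc6a11, a GABA transporter of astrocytes named after its values were seen, was at 556 CPM in BNLx replicate 3 and 202 CPM in SHR replicate 1 and between 84.3 and 104 CPM in the other libraries.

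Among 8 tested genes of glutamate transport and the glutamate-glutamine cycle, 0 were called (3 at an unadjusted p under 0.05, 2 by DESeq2), with a median log2 fold change of -0.02. The comparison of 2 libraries per strain called 4 of the 8, 2 of them higher in SHR, and 31.5% of all genes. The median of the 8 was then 0.03. Slc38a1, a glutamine transporter, was at 290.0 ± 100 CPM in BNLx against 292 ± 17.3 CPM in SHR. Slc38a2, another glutamine transporter, was at 178 ± 17.6 and 130.0 ± 2.68 CPM (log2 fold change -0.46, adjusted p = 0.217 from edgeR). Slc7a11, the cystine-glutamate exchanger, named after its values were seen, was at 40.8, 38.1 and 43.3 CPM in BNLx and 63.6, 63.2 and 56.4 CPM in SHR, with a log2 fold change of 0.58 and an adjusted p of 0.0819 from edgeR. Its strains did not overlap.

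Of 7 tested acyl-CoA synthetases, the enzyme class of Acsbg1, 0 were called (2 at an unadjusted p under 0.05, 1 by DESeq2), and the median log2 fold change was -0.16. With 2 libraries per strain 3 of the 7 were called, 2 of them higher in SHR, against 31.5% of all genes. The median of the 7 was then -0.11. Acsl3, in a locus with a second name, was at 212 ± 38.5 CPM in BNLx and 178 ± 25.6 CPM in SHR, Slc27a4 at 83.5 ± 7.56 and 75 ± 2.92 CPM and Acsl4 at 115 ± 7.87 and 134 ± 29.7 CPM. In the S100 family, 0 of 6 tested loci were called (1 at an unadjusted p under 0.05, 1 by DESeq2), and the median was 0.01. Without BNLx replicate 3 and SHR replicate 1 the median was -0.33, and 3 of the 6 were called, all lower in SHR. That comparison called 31.5% of all genes. S100a1 was at 160.0 ± 10.8 and 145 ± 8.93 CPM, S100a13 at 88.2 ± 7.06 and 100 ± 3.2 CPM, both in loci that also hold another gene, and S100a16 at 50.9 ± 9.17 and 42.8 ± 13.5 CPM. S100a10, the annexin A2 partner p11, named after its values were seen, was at 24.4, 21.9 and 11.5 CPM in BNLx and 7.64, 6.45 and 4.95 CPM in SHR (log2 fold change -1.60, adjusted p = 0.122 from edgeR).

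Neuron genes had a median log2 fold change of 0.07 over 11 tested, 0 called (1 at an unadjusted p under 0.05, 1 by DESeq2), and summed to 7297 CPM in BNLx replicate 3 and 6904 CPM in SHR replicate 1, against 9299 to 10456 CPM elsewhere. With 2 libraries per strain the median was -0.02, and 6 of the 11 were called, 2 of them higher in SHR. That comparison called 31.5% of all genes. Snap25, of the vesicle fusion machinery, was at 2060.7 ± 632 CPM in BNLx and 1286.9 ± 358 CPM in SHR, Thy1 at 995 ± 55.3 and 718 ± 58.8 CPM and Syp, synaptophysin, at 578 ± 72.2 and 557 ± 96.7 CPM. Microglia genes (7 tested, median 0.14) had 0 called, 0 at an unadjusted p under 0.05 and 0 by DESeq2, and 0 by edgeR with 2 libraries per strain (median -0.07). C1qa, C1qb and P2ry12 were at 24.6, 18 and 30 CPM on average in BNLx and 31, 19.8 and 32.3 CPM in SHR. Endothelial and pericyte genes (6 tested, median -0.11) had 0 called, 2 at an unadjusted p under 0.05 and 1 by DESeq2, with Vwf at 66.8 ± 8.41 and 36 ± 7.64 CPM, Slc2a1 at 96.8 ± 11.7 and 99.9 ± 17.8 CPM and Esam at 14.3 ± 1.47 and 11.9 ± 0.837 CPM. Of the 6, 3 were called with 2 libraries per strain, all lower in SHR, against 31.5% of all genes. The median of the 6 was then -0.21.

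Of the forebrain genes (8 tested, median 0.14) and the cerebellar genes (4 tested, median 0.02), 0 were called by edgeR or by DESeq2, and 0 had an unadjusted p under 0.05. Of the 8 forebrain genes, 3 were called with 2 libraries per strain, all lower in SHR (median -0.03), and 0 of the 4 cerebellar genes (median 0.29). Over all genes, 31.5% were called in that comparison. Nrgn, neurogranin of forebrain neurons, was at 99.3 CPM in BNLx replicate 3 and 358 CPM in SHR replicate 1, against 1131.3 to 1801.2 CPM elsewhere, and Lamp5 was at 20.2 and 119 CPM there. Zic1, a transcription factor of the cerebellum and midline, was at 72.1 CPM in BNLx replicate 3 and 64.6 CPM in SHR replicate 1 and at 7.06 to 10.5 CPM elsewhere, while Etv1, another of the cerebellar list, was lowest in these libraries (66.8 and 44.7 CPM, against 90.3 to 122 CPM) and Calb1 lay between 75.8 and 111 CPM in all. The same 2 libraries held the lowest Slc1a2 of their strain and the highest Acsbg1 of theirs. The part of regional make-up in the values of the 4 members was not tested.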

How the data were processed

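PolyA RNA of whole brain was measured in 6 libraries, 3 per strain. For each strain the authors used HISAT2 and a strain genome derived from rn6, pooled the alignments of both strains into 1 StringTie 1.3.5 assembly with Ensembl as guide, let aptardi extend it and ran RSEM; the tools and build are also in the submitters' processing notes. The deposited values are RSEM expected counts per gene and isoform, estimates that are not normalized, and TPM, scaled by the authors' RSEM within a library. A deposited table of the series repeats the expected counts of 32348 isoforms, with 0 columns outside these samples. Reads shared by isoforms were divided by estimation, and shallow libraries have larger counting error.

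The rounded counts were analysed in R 4.3.3 with edgeR 4.0.16 (two-sided quasi-likelihood test with TMM scaling and strain as sole term, BNLx as reference, at least 50 counts in 2 of 3 replicates of 1 strain). Genes and 3′ ends (isoform ends within 30 bases, summed) were called at an adjusted p of 0.05 and isoforms at the study's unadjusted p of 0.001, and usage was tested with diffSpliceDGE. CPM values are the unrounded expected counts divided by TMM-scaled library sizes, and the log2 CPM used for correlations came from the rounded counts. Scripts were tested on simulated data. Alternatives used DESeq2 1.42.0, limma 3.58.1 on log2(TPM + 1) and log2(TPM + 0.1), other scalings, filters and end groupings, the replicate number as a block, and fewer libraries.

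The 4 genes, the gene lists and the rule for naming genes were chosen with earlier results of these data known. The rule named the 4 genes with their isoforms and ends, the called genes and the 3 genes with the highest mean TPM of each list, and the 5 genes most like the members; some of the genes it named are not reported here. The labels give 1 rat per library. By the labels, lanes held either 3 or all 6 libraries, and lane sharing could not be assigned to single libraries, so lane and strain cannot be told apart. Promoter windows came from RefSeq (GRCr8). No rn6 genome was used here, so sequence around the 3′ ends was not examined.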

Additional observations from a re-analysis of the deposited data

How the results depend on the processing

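All 4 genes kept the sign of their log2 fold change in the 16 fits of each: 0.30 to 0.70 for Slc1a2, 0.29 to 0.50 for Slc1a3, -0.69 to -0.54 for S100b and -0.32 to -0.06 for Acsbg1. S100b passed the threshold with DESeq2 (log2 fold change -0.62, adjusted p = 8.23e-05; 0.00526 to 0.721 in its other fits), and Slc1a2 (0.48), Slc1a3 (0.29) and S100b (-0.67) passed without SHR replicate 1 and BNLx replicate 3 together, when isoform usage (adjusted p = 0.00104) and use of 3′ ends (adjusted p = 0.00556) of Slc1a2 passed too. The diffSplice test of limma called isoform usage of Slc1a3 (adjusted p = 0.0449). Member isoforms at an unadjusted p of 0.001 numbered 0, and 1 with DESeq2, with the filter of 1 CPM and with both libraries left out; leaving out 1 library gave 0 to 1, the 1 being STRG.13593.1.1 without SHR replicate 1. Called 3′ ends numbered 0, and 2 with DESeq2, 1 with the filter of 1 CPM and 4 with both libraries left out. The isoform and the end that the filter of 1 CPM adds are STRG.8019.4 and its end, which pass it through SHR alone, so that their calls are no evidence of a difference. The minor isoforms of Slc1a3 changed sign: without 1 library STRG.8019.2 ran from -0.74 to 0.10, STRG.8019.3 from -0.78 to 1.07 and their summed 3′ end from -0.73 to 0.66, with the highest value of each without BNLx replicate 2. STRG.8019.3 came to 0.71 with the replicate block and to 0.54 and 1.53 on log2(TPM + 1) and log2(TPM + 0.1), and the summed 3′ end to 0.18 with the block. The cause was not tested. Deviations of same-numbered libraries correlated at -0.024, 0.302 and -0.181, and those of differently numbered libraries at -0.309 to 0.23. Deviations within a strain sum to 0, so these values cannot show whether the numbers pair the rats. With the replicate block S100b had an adjusted p of 0.473 from edgeR, and no member was called. Called genes over the whole table numbered 147, and 543 with DESeq2, 230 with the filter of 1 CPM, 0 with the block, 20 to 152 without 1 library and 4393 without both. Whether depth limits the minor isoforms was not tested.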

Other observations

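The 4 genes did not share 1 profile over the 6 libraries. Slc1a2 and Slc1a3 correlated negatively with S100b and Acsbg1, with a Pearson r of log2 CPM of -0.98 to -0.66. The sides were not fully apart, since Slc1a3 (714 CPM) and Acsbg1 (202 CPM) were both high in SHR replicate 1. The mean scaled profile of the 4 genes is therefore nearly flat. The loci most like it, by Pearson correlation of scaled log2 CPM over 6 libraries and 5389 named candidates, were Tmem115 (0.99), the locus of Cenpb and Spef1 (0.97), Eif2b3 (0.95), the locus of Fam3a, Lage3, Slc10a3 and Ubl4a (0.94) and U6 (0.94). These points share library and depth, and the values are given as a description.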
